A study of Fukomys damarensis and Heterocephalus glaber and Mus musculus with 160 samples.

Results

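FOXA1 binding was measured by chromatin immunoprecipitation followed by sequencing (ChIP-seq) in the livers of 2 naked mole-rats (Heterocephalus glaber, animals NMR30 and NMR35) and 2 Damaraland mole-rats (Fukomys damarensis, animals DMR1 and DMR4). The members were all peaks of the 4 lists whose titles name liver and FOXA1, 142258 of the 8953087 peaks in the 116 lists of the series. NMR30 gave 51630 peaks, NMR35 43457, DMR1 27773 and DMR4 19398. All 4 animals were adult wild-type males, NMR30 13 months old, NMR35 15 months, and DMR1 and DMR4 each estimated at 48 months. The histone peaks used for comparison below came from these and from further animals of both species. In each species some of the further animals had other recorded ages than the FOXA1 animals. Every Damaraland animal was older than every naked mole-rat in these histone groups too. Species therefore cannot be told apart from age, or from the genome assembly the reads were placed on. The wider study profiled 3 histone marks in liver and heart of both mole-rats, the guinea pig and the mouse, and in mole-rat liver the factors CEBPA, RXRA, HNF4A and HNF6. Livers were flushed with buffer, fixed with formaldehyde and sonicated as whole tissue, so each library is a mixture of the cell types of the liver, in which fewer cells of a type and less binding per cell cannot be told apart. An anti-FOXA1 antibody (ab70382) recovered the bound DNA.

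FOXA1 is a forkhead transcription factor that can bind its DNA site on nucleosomal DNA, and it is often called a pioneer factor for that reason. In the liver it acts with FOXA2 from early development on and occupies many enhancers of hepatocyte genes. Enhancers in use are flanked by nucleosomes that carry acetylation of lysine 27 (H3K27ac) and monomethylation of lysine 4 (H3K4me1) of histone H3, whereas trimethylation of lysine 4 (H3K4me3) sits around active promoters. The data therefore allow FOXA1 summits, the single base of highest signal in each peak, to be placed on the histone landscape of the same tissue. No genome sequence or gene annotation of either build was used, so peaks are not assigned to genes or motifs.

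Within each list, peaks were ranked by the caller's −log10 p-value, rank 1 being the strongest, and the best 5000 of every list were the common basis for comparison. On the log2 scale the peak number was 15.66 in NMR30, 15.41 in NMR35, 14.76 in DMR1 and 14.24 in DMR4. Both naked mole-rat livers lay above both Damaraland livers, a mean difference of 1.03, and a two-sided exact permutation test gave p = 0.333 (adjusted p = 0.556). With 2 livers against 2 that is the smallest p the design allows, and no comparison of species here can reach 0.05. The read depth behind the lists is unknown. At a −log10 q of at least 4, 25411, 29608, 17846 and 13753 peaks were left in NMR30, NMR35, DMR1 and DMR4, so NMR35 and not NMR30 then had the most. The ages, the depth and the number of weak peaks all differ between the lists, and their part in peak number was not tested.

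The labels were first checked against tissue. Histone reference peaks were stretches covered in at least 2 libraries of a species, tissue and mark. Of the best 5000 FOXA1 summits, 63.2% in NMR30, 73.3% in NMR35, 65.8% in DMR1 and 62.5% in DMR4 lay within 1000 bases of a liver H3K27ac peak. The same summits lay within 1000 bases of a heart H3K27ac peak in 22.5%, 20.3%, 17.0% and 23.8% of cases. For H3K4me1 the liver shares were 73.1%, 86.1%, 77.3% and 70.7%, against 15.1%, 13.8%, 17.0% and 23.3% for heart. The liver and heart values did not overlap for either mark. Counted strictly inside peaks, the liver minus heart difference for H3K27ac was 18.0 percentage points in NMR30, 21.3 in NMR35, 27.9 in DMR1 and 22.1 in DMR4. It was positive in 4 of 4 livers with a mean of 22.3, and the two-sided exact sign-flip permutation test gave p = 0.125 (adjusted p = 0.188), the smallest p that 4 livers allow. For H3K4me1 the mean was 21.2 points, again positive in 4 of 4 livers (exact permutation p = 0.125, adjusted p = 0.188). For H3K4me3 the difference was 4.24 points in NMR30 and 3.58 in NMR35, but -0.18 in DMR1 and -0.60 in DMR4. Within 1000 bases of H3K4me3 the liver shares were 21.6%, 17.5%, 9.04% and 13.2%, above heart (10.9%, 6.22%, 4.40% and 8.14%) in each animal. The lists behind these references differ in number. In naked mole-rat, heart H3K27ac, H3K4me1 and H3K4me3 rest on 3, 3 and 4 libraries and liver on 5 each. Heart of the Damaraland mole-rat rests on 5 libraries per mark, and its liver on 5, 5 and 2. The references also differed in covered bases. For H3K4me1, liver covered 119.5 Mb and heart 26.4 Mb in the naked mole-rat, and 143.3 Mb and 70.4 Mb in the Damaraland mole-rat. For H3K27ac these were 69.7 Mb and 62.7 Mb, and 84.5 Mb and 82.0 Mb. A position thus had more room to fall in a liver peak, most of all for H3K4me1. The part of this in the liver minus heart differences was not tested.

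Histone peaks were less frequent at FOXA1 summits than at a short distance to either side. At the summit itself, 30.8% of the best 5000 positions in NMR30, 31.6% in NMR35, 36.6% in DMR1 and 36.3% in DMR4 were inside a liver H3K27ac peak. Moving away on both sides, the share rose to its highest value 300 bases from the summit, at 48.6%, 59.9%, 57.7% and 54.4%. At 10000 bases it had dropped to 11.3% in NMR30 and 8.70% in DMR1, with NMR35 and DMR4 between them. The gain from the summit to 300 bases was thus 17.8, 28.3, 21.1 and 18.1 points, present in all 4 livers.

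H3K4me1, the mark of active and primed enhancers, showed a deeper dip. The share at the summit was 28.5% in NMR30, 29.0% in NMR35, 25.8% in DMR1 and 27.7% in DMR4. It peaked at 51.9%, 65.1%, 64.1% and 58.0%, which was 400 bases away in every liver except NMR35, where it was 450 bases. Around the same summits heart H3K27ac and H3K4me1 changed by at most 0.94 points between the summit and their highest value. The summits of the histone peaks gave the same picture at finer grain. Per 1000 FOXA1 summits, DMR1 had 8.40 H3K27ac summits within the first 50 bases and 129 in the bin from 300 to 350 bases. NMR30 had 27 and, at 250 to 300 bases, 102.8, the shallowest contrast of the 4 livers. Chromatin was sheared to 300 bases on average, per the labels, which is the scale of this spacing. Its part in the dip was not tested.

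**Figure D1:**
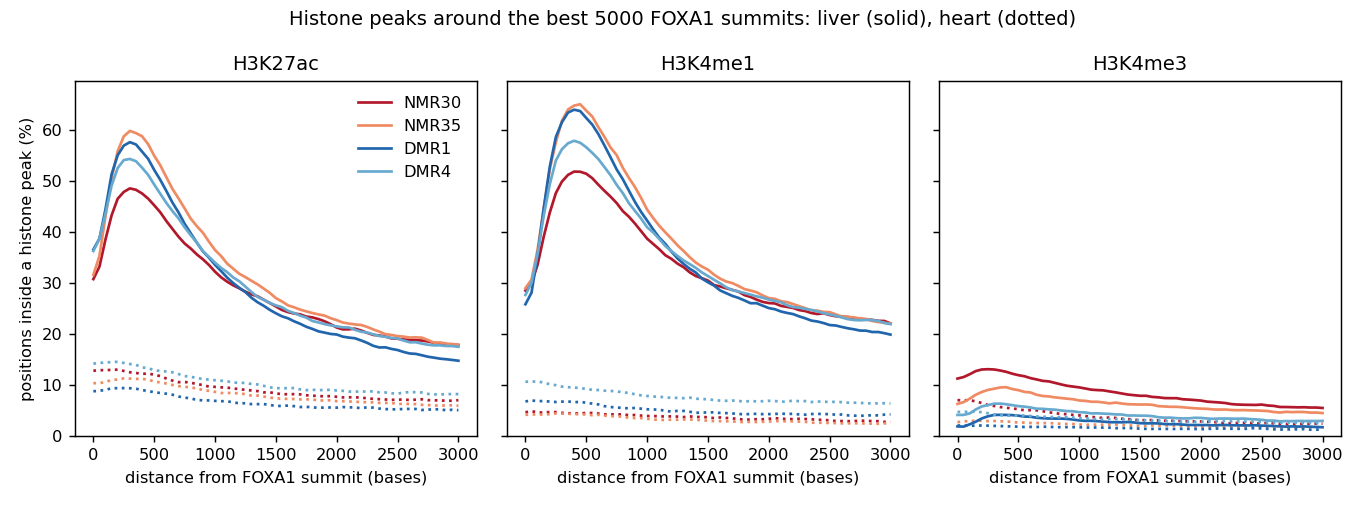
Share of positions (%, y axis) inside a histone peak at each distance in bases (x axis, both sides averaged) from the best 5000 FOXA1 summits, with 1 line per liver, solid for liver and dotted for heart histone peaks of the same species. In all 4 livers the H3K27ac share is lower at the summit (30.8% to 36.6%) than 300 bases away (48.6% to 59.9%), and H3K4me1 shows the same shape.

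Many summits outside histone peaks were enclosed by them. In NMR30, 21.8% of the best 5000 summits lay outside H3K27ac peaks with one within 1000 bases on each side, against 30.2% in NMR35, 20.9% in DMR1 and 18.4% in DMR4. The enclosed share for H3K4me1 was 30.7%, 43.2%, 41.7% and 34.1%, higher than for H3K27ac in each of the 4 livers. For H3K4me3 it was only 1.54% to 2.32%. The median distance from a FOXA1 summit to the nearest H3K27ac summit was 509.5 bases in NMR30, 407 in NMR35, 382 in DMR1 and 418 in DMR4. FOXA1 summits on scaffolds without an H3K27ac summit were left out, 134, 102, 786 and 808 of the best 5000. The species therefore rest on unlike parts of the best 5000. Their median distances overlapped (exact permutation p = 0.667, adjusted p = 0.714). The distances to H3K4me1 summits, 562, 455, 436 and 484 bases, overlapped as well, with the same p-values. There 72, 47, 772 and 798 summits were left out.

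The share inside H3K27ac peaks differed between the species by an amount, and in a direction, that depended on which peaks were counted and how. Among the best 5000, Damaraland livers (36.6% and 36.3%) lay above naked mole-rat livers (30.8% and 31.6%) for H3K27ac, by 5.25 points (exact permutation p = 0.333, adjusted p = 0.556). Over all peaks the shares were 11.2% in NMR30, 17.5% in NMR35, 22.3% in DMR1 and 28.4% in DMR4, a difference of -11.1 points without overlap and with the same p-values. On long scaffolds, those reaching at least 1 Mb, the best 5000 gave 30.7%, 32.4%, 43.1% and 43.4%, a difference of -11.7 points. For the best 1000 on all scaffolds the direction turned, to 8.00 points. The best 1000 on long scaffolds gave 33.4%, 31.6%, 37.9% and 40.1%, with the Damaraland livers again above. For H3K4me1 naked mole-rats were higher by 2.02 points with the same p-values, a direction that turned to -2.39 on scaffolds of at least 1 Mb. Within 1000 bases of H3K27ac peaks the species overlapped (exact permutation p = 0.667, adjusted p = 0.714). Restricted to scaffolds of at least 1 Mb, those shares were 61.7%, 72.4%, 77.6% and 73.8%, and both Damaraland livers lay above, by 8.64 points on average. The Damaraland reference for H3K27ac covered 84.5 Mb and the naked mole-rat reference 69.7 Mb, from 5 libraries each, so a position had unequal room to fall inside a peak. With equal numbers of histone summits and windows of fixed width the H3K27ac difference was 2.57 points in the other direction.

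H3K4me3, the promoter mark, held a small share of FOXA1 summits in both species. The share of the best 5000 summits inside H3K4me3 peaks was 11.2% in NMR30 and 6.26% in NMR35, against 1.84% in DMR1 and 4.10% in DMR4. The species did not overlap, with a mean difference of 5.78 points (exact permutation p = 0.333, adjusted p = 0.556). Within 1000 bases the shares were 21.6%, 17.5%, 9.04% and 13.2%, again without overlap. The median distance to an H3K4me3 summit was 13443, 19658, 41384.5 and 26688.5 bases. This left out 189, 200, 902 and 880 summits on scaffolds without an H3K4me3 summit. Of the 5 naked mole-rat liver lists for this mark, NMR30's own is the longest, with 253457 peaks where the rest have 27591 to 48726. Without it the difference inside peaks was 5.40 points. Without the FOXA1 library of NMR30 the difference was 3.29 points, and without that of NMR35 8.27 points. The Damaraland reference came from 2 libraries only, and covered 17.5 Mb against 26.6 Mb.

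Sorting the best 5000 summits by the marks within 1000 bases gave the same leading class in every liver, and no common order below it. H3K27ac with H3K4me1 and no H3K4me3, the pattern of active enhancers, held 41.2% in NMR30, 55.2% in NMR35, 56.3% in DMR1 and 49.0% in DMR4. It was the largest class in each of the 4. Its shares on long scaffolds were 41.3%, 55.0%, 66.6% and 58.7%, so both Damaraland livers then lay above both naked mole-rat livers. H3K4me1 alone, the pattern of primed enhancers, held 13.9%, 15.3%, 12.7% and 10.3%. None of the 3 marks was found near 22.1%, 10.9%, 21.5% and 27.2%, so NMR35 stood below the other livers. On long scaffolds these shares were 23.4%, 10.96%, 7.32% and 12.9%, and DMR1 was then the lowest. H3K27ac alone was rare, at 0.42% to 1.22%. Active-enhancer summits with no heart mark within 1000 bases made up 30.3%, 41.8%, 41.5% and 32.7% of all.

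Seen from the histone side, strong H3K27ac peaks had FOXA1 nearby more often than weak ones. H3K27ac reference peaks were ranked by their best rank in any library, taken relative to the length of that list. Of the 1000 best-ranked liver H3K27ac peaks with H3K4me1 and without H3K4me3, 57.2% in NMR30, 79.1% in NMR35, 57.5% in DMR1 and 57.9% in DMR4 had a FOXA1 summit inside or within 1000 bases. For ranks 10001 to 20000 of the same class the shares were 20.6%, 34.2%, 24.9% and 19.7%. Over the whole class, which holds 70617 peaks in the naked mole-rat and 69287 in the Damaraland mole-rat, they were 17.3%, 27.5%, 18.0% and 14.8%. NMR35 was the highest in each of these, which counted all FOXA1 peaks of lists of unequal length. With the best 5000 FOXA1 peaks of each list, ranks 10001 to 20000 gave 6.12%, 8.54%, 9.44% and 7.66%, so DMR1 was then the highest. The whole class gave 5.49%, 7.25%, 6.54% and 5.65%. Of the 1000 best H3K27ac peaks with H3K4me3, 43.6%, 46.3%, 34.8% and 41.5% had a FOXA1 summit, below the enhancer value in every liver.

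The overlap with histone peaks fell towards weak FOXA1 peaks. Among ranks 1001 to 5000, 62.3% of summits in NMR30, 72.0% in NMR35, 70.02% in DMR1 and 66.7% in DMR4 were within 1000 bases of H3K27ac. Among ranks 10001 to 20000 (to 19398 in DMR4) the shares were 22.0%, 44.8%, 28.1% and 29.7%. NMR35 kept the highest share, and the share was lower in the weaker bin in all 4 livers. Past rank 20000, 10.8% of NMR30 peaks, 17.4% of NMR35 peaks and 16.3% of DMR1 peaks were near H3K27ac. None of the 3 marks was near 83.5%, 74.8% and 77.3% of them.

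At the top of the lists the species parted. In DMR1 1.0% and in DMR4 8.0% of the best 100 summits were within 1000 bases of H3K27ac, against 67% in NMR30 and 82% in NMR35. Of those 100, 92 in DMR1 and 85 in DMR4 lay on scaffolds reaching less than 100 kb, against 14 in NMR30 and 9 in NMR35. A scaffold's reach is the last base of any peak on it in the lists used, since scaffold lengths were not used here. Such scaffolds held 0.909% of the joined reach in the Damaraland assembly and 2.18% in the naked mole-rat assembly. They carried 39.3% of the best 1000 peaks in DMR1 and 38.0% in DMR4, but 4.70% in NMR30 and 3.40% in NMR35.

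On scaffolds of at least 1 Mb alone, which kept 36257, 29472, 24240 and 16577 peaks, the Damaraland deficit at the top was smaller. Of the best 1000 there, 70.9% in NMR30, 79.4% in NMR35, 78.7% in DMR1 and 74.1% in DMR4 were near H3K27ac, so the species overlapped. The corresponding shares on all scaffolds were 67.1%, 78.6%, 48.9% and 45.5%. For H3K4me1 the best 1000 on the long scaffolds were near a peak in 80.4%, 91.4%, 90.8% and 82.0% of cases. For the best 100 on these scaffolds the H3K27ac share was still lower in DMR1 (66.0%) and DMR4 (61.0%) than in NMR30 (78.0%) and NMR35 (85.0%).

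The planned rank contrast, ranks 1 to 1000 minus ranks 10001 to 20000 inside H3K27ac peaks, was 20.2 points in NMR30, 7.58 in NMR35, 5.13 in DMR1 and 4.24 in DMR4. It was positive in 4 of 4 livers with a mean of 9.29 (exact sign-flip permutation p = 0.125, adjusted p = 0.375). On scaffolds of at least 1 Mb the mean was 21.5 points. Without NMR30 it was 5.65 points. For H3K4me1 only NMR30 was positive, at 13.4 points, with -4.60, -6.33 and -5.85 in the others, and the mean was -0.85 (exact permutation p = 1). The H3K4me1 mean turned to 9.14 on the long scaffolds (exact permutation p = 0.125). For H3K4me3 the values were 8.85, 0.33, -0.99 and 0.18 points.

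**Figure D2:**
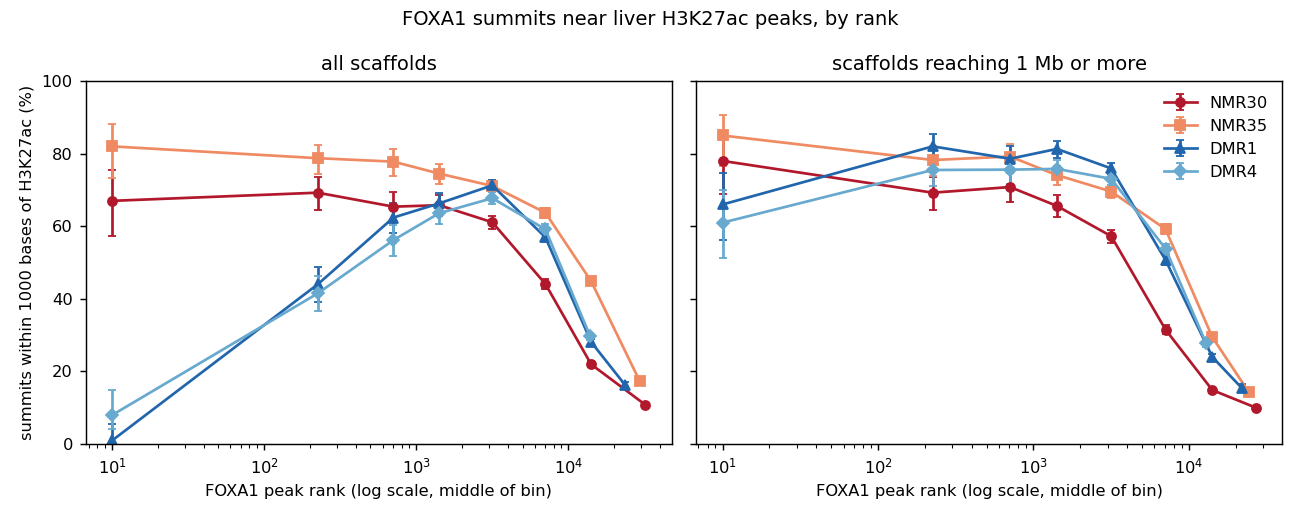
Share of FOXA1 summits (%, y axis, bars are Wilson 95% intervals for counting error only) within 1000 bases of a liver H3K27ac peak, by rank bin (x axis, log scale), on all scaffolds (left) and on scaffolds reaching at least 1 Mb (right), 1 line per liver. On the left the best 100 peaks of DMR1 and DMR4 sit at 1.0% and 8.0%, and on the right at 66.0% and 61.0%.

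The regions with the best mean rank in both livers of a species show what lies at the top. Coordinates count from 1 on HetGla_1.0 for the naked mole-rat and DMR_v1.0 for the Damaraland mole-rat, the builds named for the histone lists with the same scaffolds. The strongest naked mole-rat region was JH170919.1:28652-29153, rank 1 in both livers, with the caller's own fold enrichment of 34106 in NMR30 and 16832 in NMR35. It overlapped none of the 3 liver reference marks and was therefore also the best region without these reference marks. It did have a peak in 1 single liver H3K27ac list, and it overlapped heart H3K27ac. Regions 2 to 5, JH172194.1:216130-216615, JH172833.1:257058-257660, JH204773.1:222272-224045 and JH167839.1:12642-13269, held the same ranks in both livers. All 4 overlapped H3K27ac and H3K4me3, with 5 of 5 liver lists for each of these 2 marks. Every one of these 5 regions also had a peak in 6 of 6 lists of other factors from naked mole-rat liver.

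The 5 best Damaraland regions were KN124264.1:3099-4320, KN121233.1:8136-9159, KN123892.1:10577-12666, KN123668.1:997-2028 and KN125078.1:642-1894. Their scaffolds reach from 1917 to 19108 bases. None overlapped a peak of the 3 marks in any single liver list, and each had a peak in 6 of 6 lists of other factors. The fold enrichment of the first was 264.9 in DMR1 and 303.2 in DMR4. KN125078.1:642-1894 had the highest fold of the lists, 2728 and 4706. The regions that head the FOXA1 lists of both species were thus present in the lists of the other factors too.

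A region of active-enhancer type, with H3K27ac and H3K4me1 but no H3K4me3, first appeared at ranks 17 and 21 in the naked mole-rat, at JH168601.1:62848-63970, with folds of 208.8 and 141.7. In the Damaraland mole-rat it first appeared at ranks 124 and 131, at KN123765.1:476-1001, with folds of 10.6 and 12.8, and with peaks in 2 of 6 lists of other factors. That scaffold reaches only 1077 bases. The Damaraland region had H3K27ac in 4 and H3K4me1 in 2 liver lists, and the naked mole-rat region in 3 and 2. Both regions also overlapped heart H3K27ac. On scaffolds of at least 1 Mb the best 3 Damaraland regions were KN123090.1:2851574-2852942, KN122969.1:2007421-2007851 and KN123090.1:2854898-2855851, at ranks 17, 32 and 30 in DMR1 and 42, 90 and 117 in DMR4. These 3 overlapped no liver reference mark either, with folds between 2.07 and 12.2. Of them, KN122969.1:2007421-2007851 had a peak in 1 single liver H3K27ac list and overlapped heart H3K27ac. The naked mole-rat counterparts after rank 1 were JH171101.1:2836321-2838210 and JH171743.1:1839067-1840022, both with H3K27ac.

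FOXA1 peaks of the 2 animals of a species were compared at equal numbers. Of the best 5000 of NMR30, 60.9% overlapped one of the best 5000 of NMR35 by at least 1 base (Wilson 95% interval 59.5% to 62.2%), and 60.4% the other way round. For DMR1 and DMR4 the shares were 58.2% (56.8% to 59.5%) and 58.3%. Against all peaks of the other animal, 93.1% of the NMR30 best 5000 and 89.8% of the NMR35 best 5000 were found again, against 81.9% in DMR1 and 78.5% in DMR4. With 1 pair per species the difference between species has no test. The DMR1 file name also carries another run tag than the other FOXA1 lists, so only the Damaraland pair crosses tags. In all comparisons of replicate overlap, species therefore cannot be told apart from this difference in tags.

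Replicate overlap at the top of the lists depended on the scaffolds counted. Best 500 against best 500 gave 55.8% and 55.0% in the naked mole-rat and 63.8% and 64.0% in the Damaraland mole-rat. The order turned on scaffolds of at least 1 Mb, to 56.8% and 56.2% against 52.6% in both directions. The Damaraland overlap was lower at the best 5000 than at the best 500 on all scaffolds (58.2% for DMR1), but on long scaffolds it was higher, at 55.0%. In the naked mole-rat it was higher at the best 5000 in both cases, with 60.9% and 60.5% for NMR30. Over whole lists, 23.4% of NMR30 peaks and 27.7% of NMR35 peaks were shared, and 26.8% of DMR1 and 38.4% of DMR4 peaks. Bases covered in both animals, divided by bases covered in at least 1 (the Jaccard index), came to 0.37 for the best 5000 in each species and 0.16 and 0.20 for whole lists. Where both livers had a summit within 200 bases, 10953 cases in the naked mole-rat and 7027 in the Damaraland mole-rat, the median offset of the summits was 42 and 39 bases. Across these peaks Spearman's rho of the 2 folds was 0.50 and 0.58, a description over peaks of 2 libraries, which are not independent replicates. On long scaffolds rho was 0.50 and 0.48, so the order of the species turned.

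At weak ranks, peaks found in both animals were near H3K27ac more often than peaks of 1 animal. At ranks 10001 to 20000, 60.3% of NMR30 peaks that were also in NMR35 lay within 1000 bases of H3K27ac, against 11.1% of those that were not. In DMR1 the shares were 70.8% and 22.3%, and in DMR4 (to rank 19398) 69.7% and 23.4%. NMR35 had the smallest gap, at 53.0% and 41.7%. Its shared peaks were near H3K27ac less often at each weaker bin, from 78.8% at ranks 1 to 1000 through 71.7% and 62.6% to that 53.0%. At ranks 5001 to 10000 its peaks without a partner in NMR30 were near H3K27ac as often (65.3%) as those with one (62.6%), whereas NMR30 gave 20.7% and 62.0%. Shared peaks numbered 12098 in NMR30 and 12016 in NMR35, 7456 in DMR1 and 7452 in DMR4.

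**Figure D3:**
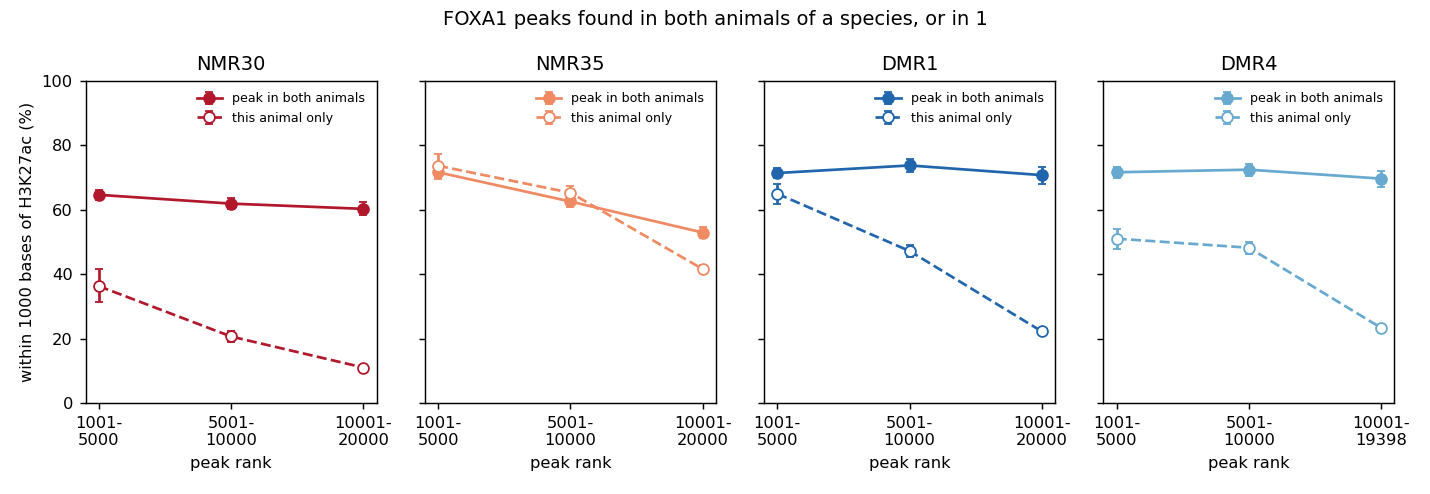
Share of FOXA1 peaks (%, y axis, bars are Wilson 95% intervals for counting error only) within 1000 bases of liver H3K27ac by rank bin (x axis, from rank 1001), for peaks overlapping a peak of the other animal (filled, solid) and those without one (open, dashed), 1 panel per liver. Shared peaks lie between 53.0% and 73.8%, and peaks of 1 animal fall to 11.1% in NMR30, 22.3% in DMR1 and 23.4% in DMR4, but to 41.7% in NMR35.

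Peak width followed rank and the library. The median over all peaks was 268 bases in NMR30, 374 in NMR35, 281 in DMR1 and 338 in DMR4, and the species overlapped (difference 11.5 bases, exact permutation p = 1). Each list has a floor, its narrowest width, of 255, 309, 259 and 262 bases, and 46.3%, 37.6%, 44.6% and 27.6% of peaks sat exactly on it. Among the best 5000, where 0.14% or fewer were at the floor, the medians were 535, 727, 467 and 493 bases. There the naked mole-rat livers lay above the Damaraland livers by 151 bases (exact permutation p = 0.333, adjusted p = 0.556). NMR35, with the highest floor, was also the widest, and without it the difference was 55 bases. Without NMR30 it was 247 bases.

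The fold enrichment in the lists is the caller's own value and is given as a description. Its median over all peaks was 4.53 in NMR30, 4.92 in NMR35, 5.11 in DMR1 and 4.98 in DMR4. Among the best 5000 it was 11.5, 18.3, 9.95 and 10.1. From the best 100 to ranks 10001 to 20000 the median fell from 99.6 to 5.30 in NMR30, from 119 to 5.88 in NMR35 and from 38.4 to 5.01 in DMR1. In DMR4 it fell from 55.2 to 4.21 at ranks 10001 to 19398. The −log10 p at rank 5000 was 33.3 in NMR35 and 17.2, 17.0 and 16.1 in NMR30, DMR1 and DMR4, so an equal rank stood for a stronger peak in NMR35.

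**Figure D4:**
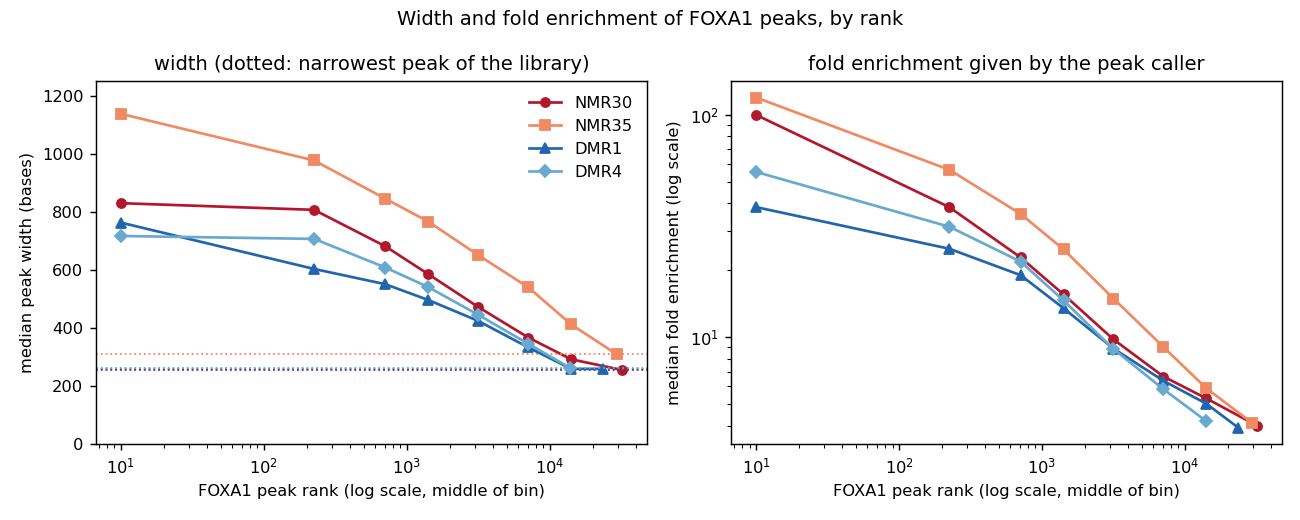
Median width in bases (left, y axis; dotted lines give the narrowest peak of each library) and median fold enrichment given by the caller (right, log scale) by rank bin (x axis, log scale), 1 line per liver. NMR35 is the widest and has the highest fold in every bin up to ranks 10001 to 20000, and widths settle on each library's floor of 255 to 309 bases.

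FOXA1 was compared with the other liver factors of the same animals. CEBPA is a leucine zipper factor of hepatocytes, RXRA the partner of many nuclear receptors, HNF4A a nuclear receptor central to hepatocyte identity, and HNF6 a cut-homeodomain factor. At the best 5000 peaks, the share of CEBPA summits inside H3K27ac peaks was 37.4% in NMR30, 37.3% in NMR35, 40.4% in DMR1 and 46.6% in DMR4. FOXA1 was lower in 4 of 4 animals, by 3.82 to 10.3 points. The mean difference was -6.58 ± 2.72 points (SD, n = 4; exact sign-flip permutation p = 0.125, adjusted p = 0.188). RXRA summits were inside H3K27ac peaks in 43.4%, 46.6%, 53.8% and 60.7% of cases. FOXA1 was lower in 4 of 4 animals, with a mean difference of -17.3 ± 5.07 points (SD, n = 4; exact permutation p = 0.125, adjusted p = 0.188). For HNF4A, which 3 of these animals have, the FOXA1 minus HNF4A difference ranged from -24.6 to 10.7 points (mean -7.05, exact permutation p = 0.75). The HNF4A list of NMR30 stood apart, with 20.0% of its summits inside H3K27ac against 38.9% in NMR35 and 60.9% in DMR4. Over all peaks, in place of the best 5000, the FOXA1 minus CEBPA mean turned to 0.58 points.

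The enclosed position differed between factors. CEBPA summits outside H3K27ac peaks with one on each side made up 34.1%, 34.6%, 23.2% and 28.4% of the best 5000, above the FOXA1 value in each animal. RXRA gave 22.2%, 19.6%, 20.7% and 25.8%, above FOXA1 in NMR30 and DMR4 and below it in NMR35 and DMR1. HNF4A gave 4.54% in NMR30, 13.1% in NMR35 and 17.2% in DMR4, and HNF6 12.5% in DMR1, below FOXA1 in each animal.

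FOXA1 summits often had another factor close by. Of the best 5000, 50.9% in NMR30, 57.2% in NMR35, 52.9% in DMR1 and 62.6% in DMR4 had a CEBPA summit of the same animal within 200 bases. The share with an RXRA summit was 41.5%, 42.2%, 53.7% and 74.3%, the Damaraland livers lying above the naked mole-rat livers. HNF4A gave 34.2% in NMR30, 28.7% in NMR35 and 49.6% in DMR4, and HNF6, measured here in DMR1 only, 37.6%. These shares can grow with the number of peaks of the other factor, which for CEBPA was 122941, 84760, 41372 and 75849. Against the best 5000 CEBPA peaks alone they were 10.0%, 16.1%, 28.0% and 16.1%, and against the best 5000 RXRA peaks 26.7%, 20.3%, 27.8% and 21.5%. DMR1 was the highest for both factors on all scaffolds. On long scaffolds its share for CEBPA was 20.9%, still the highest of the 4. For RXRA it was 19.8% there, the lowest, with 20.8% to 23.5% in the other 3 livers.

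Co-occupancy was lower at weak FOXA1 ranks in every liver. With RXRA it went from 98.0% of the best 100 in DMR4 to 75.9% at ranks 1001 to 2000 and 20.1% past rank 10000. In NMR35 it went from 64.0% through 42.3% to 23.9% at ranks 10001 to 20000. On scaffolds of at least 1 Mb the best 100 FOXA1 summits of DMR1 were near CEBPA in 63.0% of cases, against 100% on all scaffolds.

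**Figure D5:**
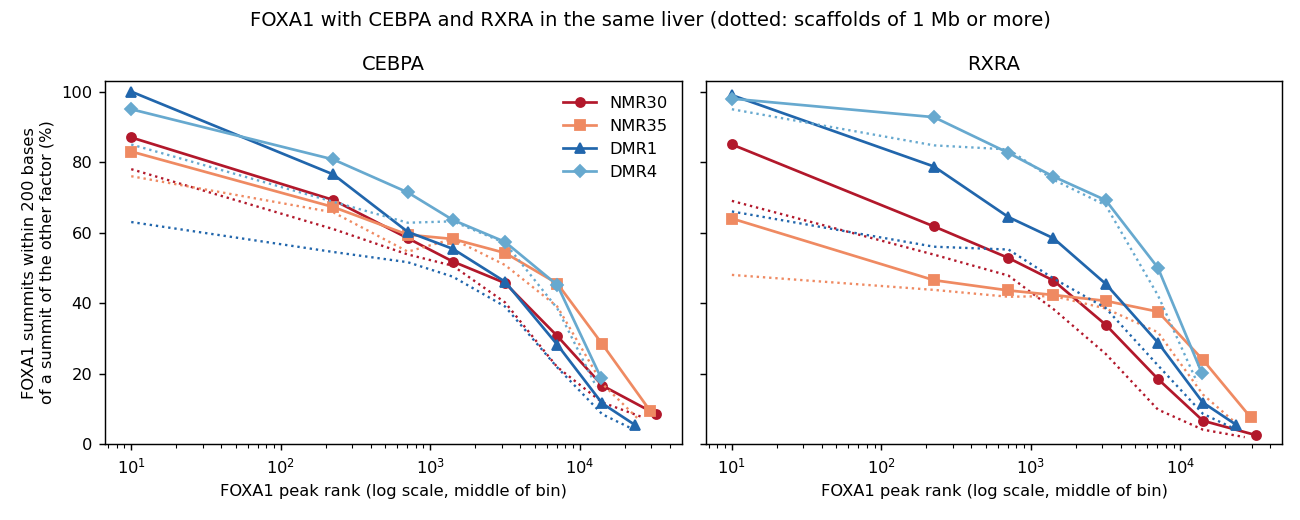
Share of FOXA1 summits (%, y axis) within 200 bases of a CEBPA (left) or RXRA (right) summit of the same animal by FOXA1 rank bin (x axis, log scale), 1 line per liver, dotted for scaffolds reaching at least 1 Mb. Every line is lower past rank 10000 than at the best 100, and for DMR1 the best 100 drop from 100% on all scaffolds to 63.0% on long scaffolds for CEBPA.

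Summits joined by all 3 other factors of an animal differed between scaffold classes in the Damaraland livers. In DMR1 29.7% of the best 5000 FOXA1 summits with all 3 partners were near H3K27ac, against 75.5% of those with 2 partners. These shares were 68.3% and 84.5% on scaffolds of at least 1 Mb. On all scaffolds they were 41.0% and 61.4% in NMR30, and 53.5% and 80.4% in NMR35. Long scaffolds gave 43.2% and 64.5% in NMR30, and 54.0% and 78.9% in NMR35. The summits shared by all factors were thus less often near H3K27ac in these livers too. In DMR4 the values were 60.5% against 75.5% on all scaffolds and 85.7% against 82.5% on long ones. With no partner the share on all scaffolds was 66.5% in NMR30, 70.3% in NMR35 and 71.6% in DMR1, above that with all 3. In DMR4 it was 48.0% with no partner and 53.9% with 1, both below that with all 3. The third partner was HNF6 in DMR1 and HNF4A in the other livers. The median fold of summits with all 3 partners was 17.0 in NMR30, 19.5 in NMR35, 9.87 in DMR1 and 10.9 in DMR4. With no partner it was 10.6, 16.8, 9.35 and 9.12, lower in each liver. In DMR1 the median fold was 10.1 with 1 partner and 10.4 with 2, both above the value with all 3.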

How the data were processed

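Each library has 1 deposited peak list, made by the authors with MACS2 per the submitters' processing notes and called against an input library of the same animal per the file names. For the aligner, the software versions and the build of the FOXA1 lists, the record is: not given in the sources used here. Deposited columns used were the fold enrichment (a linear ratio), the −log10 p-value and −log10 q-value, and the summit offset. The lowest deposited −log10 q was 1.30.

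Overlapping entries of a list were merged (none overlapped). Histone references were stretches covered in at least 2 libraries, the FOXA1 animals' own among them. Intervals are Wilson 95% intervals and cover counting error only. Species were compared by two-sided exact permutation (15 comparisons) and paired values by exact sign flips, with Benjamini-Hochberg adjustment per family at 0.05. Factors were paired by animal, as the labels name it. The DMR1 file name carries another run tag than the other FOXA1 lists, which leaves no comparison within a run for it. Named regions were the 5 with the best mean rank among regions with a peak in both livers, the best with H3K27ac and H3K4me1 without H3K4me3, and the best with no mark. The 3 best on scaffolds of at least 1 Mb, the shares within 1000 bases and the enclosed shares were added after seeing the data. The 3 species comparisons within 1000 bases are counted among the 15. Members and lists were chosen with earlier results of these data known. Interval code was tested on simulated data. Python 3.11.15, NumPy 2.4.6, pandas 2.3.3, SciPy 1.17.1 and Matplotlib 3.10.9 were used.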

Additional observations from a re-analysis of the deposited data

Results flagged for a closer look

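The NMR30 liver H3K4me3 list held 253457 peaks and stood far above the other 4 naked mole-rat livers, 27591 to 48726. It was 1 of 5 liver histone groups of the mole-rats checked for a sample apart from the rest, and chance marks about 1 group in 20. It enters the FOXA1 results through the H3K4me3 reference of the naked mole-rat, and without it the species difference in the FOXA1 share inside H3K4me3 peaks was 5.40 points in place of 5.78.

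The FOXA1 share inside liver H3K4me3 peaks minus that inside heart H3K4me3 peaks was positive in both naked mole-rat livers (4.24 and 3.58 points) and negative in both Damaraland livers (-0.18 and -0.60). The species means differed by 4.30 points. The difference was not tested. Within 1000 bases the liver share was above the heart share in all 4 livers, so the split held only strictly inside peaks. In the Damaraland mole-rat the liver reference covered 17.5 Mb from 2 libraries and the heart reference 25.9 Mb from 5. In the naked mole-rat they covered 26.6 Mb from 5 libraries and 21.0 Mb from 4.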

How the results depend on the processing

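Of 212 recomputed species differences over 15 comparisons, 193 kept their direction and 19 reversed, and 8 comparisons reversed under no setting. None of them could pass 0.05 at 2 livers against 2. Values are naked minus Damaraland mole-rat unless named otherwise, and the cause of a change was not tested. For the best 5000 inside H3K4me1 peaks the difference was -1.68 points with ranks by fold, -2.39 on scaffolds of at least 1 Mb, -1.20 for the best 10000 and -0.38 with the histone consensus of the 2 FOXA1 animals. Inside H3K27ac peaks it was 8.00 for the best 1000, 2.57 with equal numbers of histone windows and 3 when 1 base of overlap sufficed. Within 1000 bases of H3K27ac it was -1.52 by fold, -8.64 on the long scaffolds and -0.005 for the best 10000, and within 1000 bases of H3K4me1 -1.81 by fold and -8.43 on the long scaffolds. For all peaks inside H3K4me3 it was -0.29 with the consensus of the 2 FOXA1 animals and -0.81 with equal windows. The H3K4me1 rank contrast over the 4 livers was 3.85 by fold, 9.14 on the long scaffolds, 16.0 with equal windows and 9.57 from ranks 1001 to 5000.

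Leaving out 1 library at a time gave ranges of -41.5 to 64.5 bases for the median width of all peaks, -5.0 to 102 bases for the distance to H3K4me1 summits, -0.89 to 9.15 points within 1000 bases of H3K27ac and -0.93 to 12.03 within 1000 bases of H3K4me1. For the rank contrasts the ranges were -5.59 to 0.98 for H3K4me1 and -0.16 to 3.12 for H3K4me3, and for FOXA1 minus HNF4A -16.0 to 1.73. Over all peaks FOXA1 minus CEBPA was 0.58 and minus HNF4A 3.77 points, and within 1000 bases of H3K27ac FOXA1 minus HNF4A was 7.87. With no replicate block, that is without the pairing by animal, FOXA1 minus CEBPA stayed -6.58 and minus RXRA -17.3, but an exact permutation of 4 against 4 values gave p = 0.0286 (adjusted p = 0.0429) for both, since more arrangements exist. Species share no animals, so they were not paired.

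Replicate overlap moved, for the naked and the Damaraland mole-rat in turn, to 56.9% and 51.4% by fold, 56.4% and 62.6% for the best 1000, 56.3% and 51.9% for the best 10000, 43.4% and 36.2% for the best 20000, and 55.8% and 53.2% with summits within 100 bases. On the long scaffolds the Damaraland value was 54.9%. Co-occupancy with CEBPA, a mean of 4 livers, was 65.4% with overlap by 1 base and 43.9% within 100 bases. Read depth is unknown, so peak number and rank carry an unmeasured depth.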

Other observations

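FOXA1 peaks were spread thinly along the scaffolds. The median gap from one of the best 5000 summits to the nearest other was 53875 bases in NMR30, 71400 in NMR35, 77501 in DMR1 and 68812 in DMR4. Within 10000 bases of another were 23.4%, 17.6%, 17.9% and 19.8% of them, so NMR30 had the most closely spaced summits. Of the best 5000, 613 in NMR30, 627 in NMR35, 684 in DMR1 and 699 in DMR4 were alone on their scaffold, with no neighbour to measure.

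At regions shared by both naked mole-rat livers the fold was higher in NMR35 than in NMR30 in most cases: the median was 9.48 against 6.76, and NMR30 was the higher in 31.0%. In the Damaraland pair the medians were 7.39 in DMR1 and 7.08 in DMR4, with DMR1 the higher in 53.4%.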
